A study of Mus musculus with 16 samples.

Results

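The glutathione transferase (Gst), UDP-glucuronosyltransferase (Ugt) and sulfotransferase (Sult) genes are the main conjugating enzymes of mouse liver, and 62 of the 22322 genes in the deposited tables carry their symbols. Members were taken by symbol alone: 22 cytosolic Gst genes of the a, k, m, o, p, t and z classes, 21 Ugt genes of the 1a, 2a, 2b and 3a families, and 19 Sult genes of families 1 to 5. The symbol rule used no measured value, but members were chosen with earlier results of these data known. Poly(A)-selected RNA was sequenced from liver and white adipose tissue of mice with diet-induced obesity, a state that vehicle and treated groups share. Treated mice received halofuginone, a plant alkaloid derivative that inhibits prolyl-tRNA synthetase, by intraperitoneal injection of 100 μg/kg every 2 days, and tissue was collected after 8 weeks. There were 5 vehicle and 5 halofuginone livers, and 3 vehicle and 3 halofuginone fat samples, with the vehicle groups labelled HFD and the treated groups H100. Strain, sex, age and fat depot are not given in the sources used here, nor is it said that each library came from a separate animal, so the p-values measure the spread between these libraries.

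Conjugating enzymes attach a polar group to drugs, hormones, bile pigments and lipid breakdown products so that these can be pumped out of the cell and excreted. Glutathione transferases add glutathione to electrophiles, UDP-glucuronosyltransferases of the endoplasmic reticulum add glucuronic acid, and cytosolic sulfotransferases add sulfate from an activated donor. In hepatocytes many of these genes are known to be controlled by liver-enriched factors such as HNF4A, by the receptors CAR, PXR, AHR and PPARA, and by NRF2, the transcription factor that answers electrophile stress.

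The counts summed to between 20309956 and 31980683 per liver library and between 17070614 and 21387799 per fat library. Levels are given below as CPM (counts scaled to library size with trimmed-mean factors), which compare libraries, and as deposited FPKM where different genes are compared, since FPKM is scaled by gene length. A gene is called where edgeR's quasi-likelihood test gave a Benjamini-Hochberg adjusted p under 0.05 over all genes tested in that tissue. A treated liver, halofuginone library 1, stood apart from its group. The first principal component over all tested genes, which held 56.2% of the variance, placed it at -23.3, next to the vehicle livers at -36.0 to -28.3 and away from the other treated livers at 32.4 to 58.0. Liver results are therefore given with this library and, where it matters, without it.

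In liver, 45 of the 62 members had enough reads to be tested, and 18 of them fell under halofuginone while 2 rose and 25 were not called. Over all 12311 genes tested in liver, 10.5% were called lower and 12.7% higher. The median log2 fold change (halofuginone against vehicle) was -0.72 over the tested members and 0.02 over all tested genes, and 40 of the 45 members had a value below 0. In this bulk tissue, fewer cells of a type and less RNA per cell cannot be told apart. The 18 that fell were spread over 4 Gsta, 1 Gstk, 2 Gstm, 2 Gstt and 1 Gstz genes, 3 Ugt1a genes, 1 Ugt3a gene and 4 Sult1 genes. No member of Gsto, Gstp, Ugt2a, Ugt2b, Sult2 or Sult5 was called lower, and the 2 that rose were Gstp3 and Ugt2b35. In 9 of the 45 tested members (20%) every treated library lay below every vehicle library, against 6.55% of all tested genes, and these 9 were among the 18 called. For no member did every treated library lie above (5.13% of all tested genes).

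Without halofuginone library 1, all 18 of these members were again called lower, 11 more joined them, and Gstp3 and Ugt2b35 were again called higher. The background moved as well: without this library 21.6% of 12422 tested genes were called lower and 21.2% higher, and the median log2 fold change was -0.84 over the members and -0.02 over all tested genes. In library 1 itself 22 of the 45 tested members lay below the vehicle range, 14 within it and 9 above it. Halofuginone library 2 had 37 of the 45 members below the vehicle range, library 5 had 33, library 3 had 27 and library 4 had 22. Over all tested genes the share below the vehicle range was 24.5% in library 1 and 29.8% to 31.7% in the other treated libraries.

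**Figure D1:**
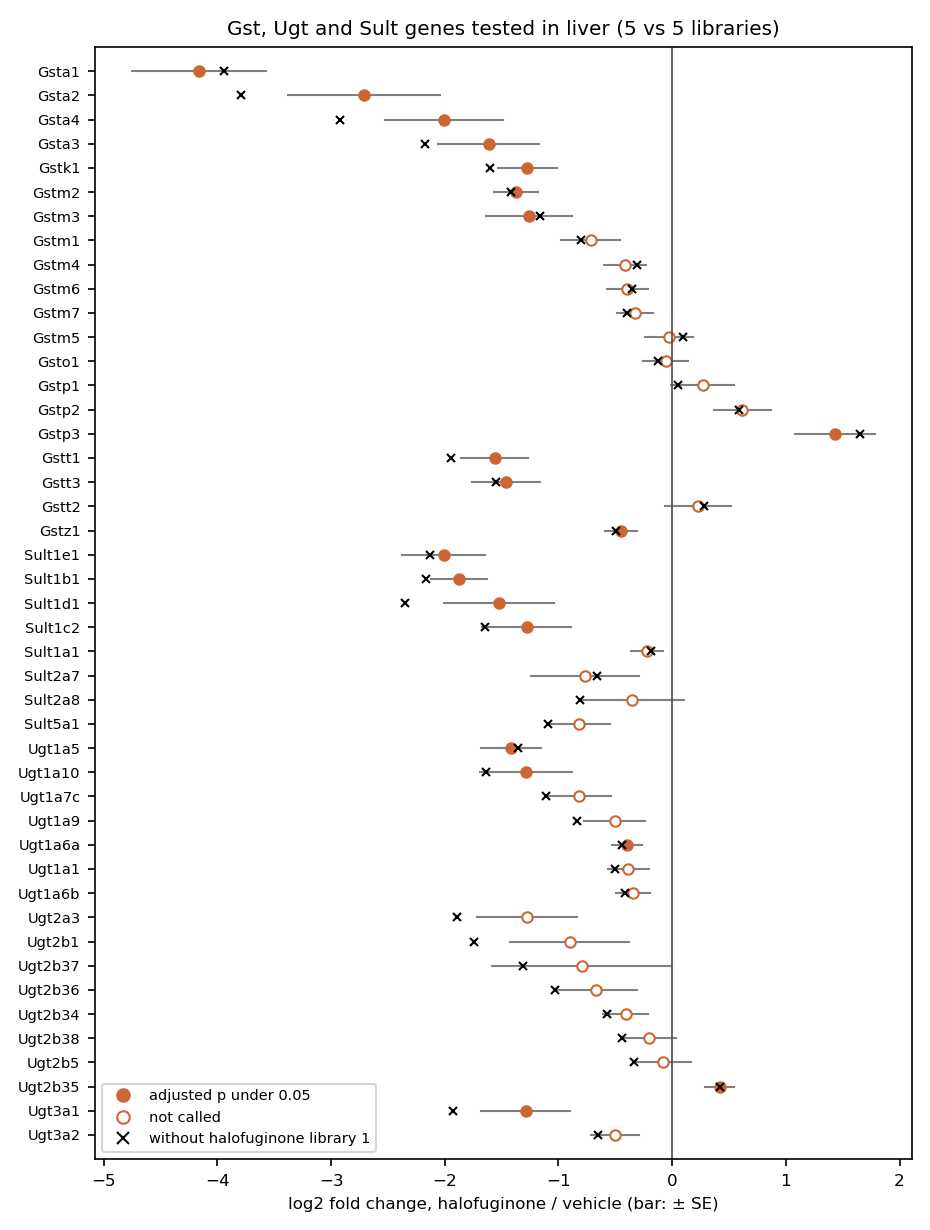
Log2 fold change (halofuginone over vehicle, x axis) of the 45 members tested in liver, a row per gene, grouped by family; circles are edgeR estimates from 5 against 5 libraries with bars of ± 1 SE, filled where the adjusted p was under 0.05, and crosses are the estimates without halofuginone library 1. The 18 filled circles left of 0 include the whole Gsta class, and the 2 filled circles right of 0 are Gstp3 and Ugt2b35.

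**Figure D2:**
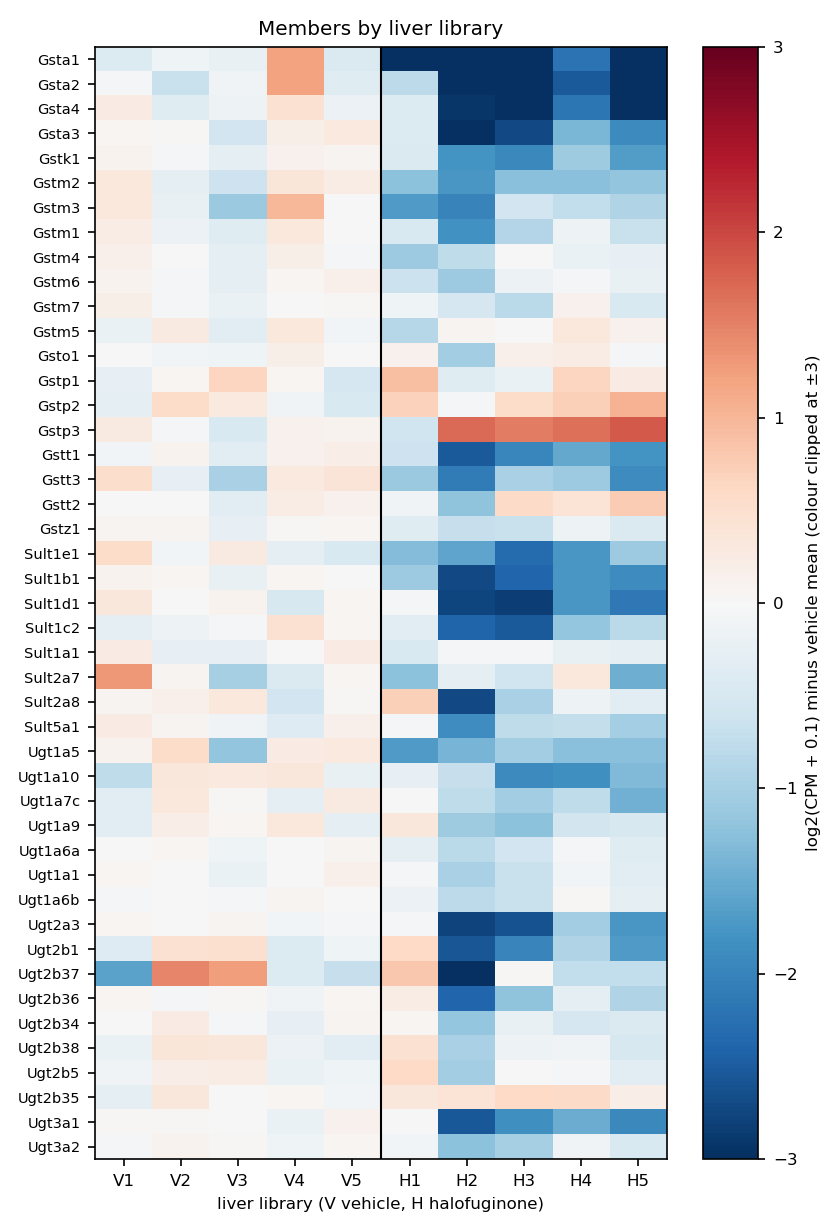
Each member's log2(CPM + 0.1) in each liver library minus its vehicle mean (blue lower, red higher, colour limited at ± 3), with vehicle libraries V1 to V5 left of the line and halofuginone libraries H1 to H5 right of it. Column H1 is paler than H2 to H5 for many genes, such as Gsta4, Sult1d1, Ugt2a3 and Ugt3a1.

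Measured per gene length, the most abundant members of vehicle liver were Gsta3 at 814 ± 182 FPKM (mean ± SD, n = 5), Gstz1 at 569 ± 57.5 FPKM, Gstm1 at 549 ± 117 FPKM and Gstp1 at 521 ± 155 FPKM. The leading Ugt genes were Ugt2b5 at 282 ± 31.9 FPKM and Ugt1a1 at 256 ± 25 FPKM, and the leading Sult genes were Sult1a1 at 278 ± 48.2 FPKM and Sult2a8 at 277 ± 54.1 FPKM. The summed FPKM of all 62 members was 5343, 5199, 4874, 5564 and 5375 in the vehicle livers and 5540, 2444, 3647, 4482 and 3680 in the treated livers. Halofuginone library 1 lay within the vehicle range for this sum and the other treated libraries lay below it. The Gsta class went from a median of 877 summed FPKM (lowest 548, highest 1009) to a median of 235 (lowest 100.5, highest 639.7), and the Gstt class from a median of 214 (155 to 246) to 99.3 (48.9 to 143). By contrast the Gstp median was higher in treated livers, at 520.1 (367 to 773) under vehicle and 685 (482 to 993) under halofuginone. The groups overlapped for Gstp, as they did for Gsta. In halofuginone library 1, Gstp, Ugt2b and Sult2 had their highest sums of all 10 livers. Of the 17 members not tested in liver, 8 had no count in any liver library and the highest single count among the rest was 23.

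**Figure D3:**
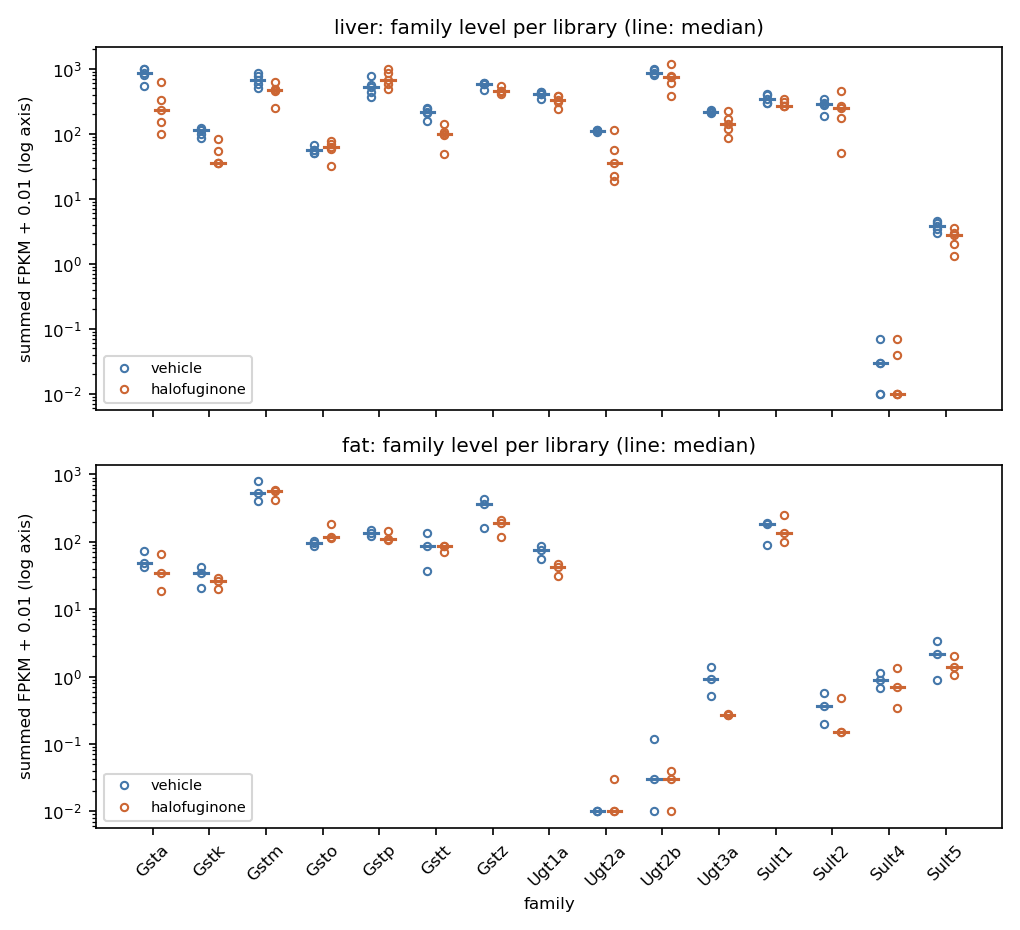
Summed deposited FPKM of each family (log axis, 0.01 added) in each library of liver (upper panel) and fat (lower panel); points are libraries, vehicle in blue and halofuginone in orange, and short lines are group medians. In liver the median is lower under halofuginone in every family shown except Gsto and Gstp, and the groups overlap in all but Gstk and Gstt. In fat Ugt2a and Ugt2b lie near 0 in every library.

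The alpha class glutathione transferases, which also reduce lipid hydroperoxides, fell as a whole: 4 of 4 members were called lower. Gsta3, the most abundant, measured 1018, 988, 656, 1103 and 1187 CPM in vehicle livers 1 to 5 and 726, 105, 148, 378 and 259 CPM in treated livers 1 to 5. Its call (log2 fold change -1.61, SE 0.45, adjusted p = 0.0269, edgeR) came with library 1 inside the vehicle range and libraries 2 to 5 below it, and it was lost without vehicle libraries 1, 2, 4 and 5 or halofuginone libraries 3, 4 and 5 (highest adjusted p = 0.0656). Gsta4, which prefers the lipid peroxidation product 4-hydroxynonenal, measured 30.6, 20.2, 23.3, 35.4 and 23 CPM under vehicle and 19.4, 3.32, 2.79, 5.67 and 2.42 CPM under halofuginone. Every treated library was below every vehicle library, library 1 only just (edgeR log2 fold change -2.004, SE 0.52, adjusted p = 0.0217), and leaving library 1 out gave log2 fold change -2.92, adjusted p = 2.34e-05. The call was lost without halofuginone libraries 3 and 4 (highest adjusted p = 0.0547). Gsta1 and Gsta2, in a cluster with Gsta4 on chromosome 9, are inducible forms with low levels here. Gsta2 measured 6.81, 4.41, 6.62, 16.6 and 5.47 CPM under vehicle and 4.07, 0.224, 0.322, 1.16 and 0.633 CPM under halofuginone (edgeR log2 fold change -2.71, SE 0.67, adjusted p = 0.0185), with no overlap and with library 1 again the highest treated library. Gsta1 measured 1.07, 1.3, 1.21, 3.44 and 1.05 CPM under vehicle and 0, 0.0746, 0.0358, 0.232 and 0.0745 CPM under halofuginone (edgeR log2 fold change -4.16, SE 0.59, adjusted p = 0.00317), the last 5 values standing for 0 to 6 counts. Gsta1 and Gsta2 transcripts are 96.7% identical, and 86.3% of the 75-base words of Gsta1 transcripts also occur in other genes, so their separate values are uncertain.

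Gstk1, the kappa class enzyme of mitochondria and peroxisomes, fell without overlap. It measured 112, 102, 87.3, 114 and 111 CPM under vehicle and 77.4, 30.1, 27.6, 50.3 and 32.6 CPM under halofuginone (edgeR log2 fold change -1.27, SE 0.26, adjusted p = 0.0102). In the mu class, a cluster of 7 genes on chromosome 3, 2 neighbours fell and 5 were not called, with a median log2 fold change of -0.41. Gstm2 measured 48.2, 31.6, 25.4, 50.2 and 45.8 CPM under vehicle against 16.5, 11.5, 16.3, 16.2 and 17.1 CPM under halofuginone. All 5 treated libraries lay below all 5 vehicle libraries, library 1 among them (edgeR log2 fold change -1.38, SE 0.19, adjusted p = 0.00317). Gstm3 measured 10.8, 7.51, 4.01, 17.6 and 8.82 CPM against 2.63, 2.09, 5.83, 5.17 and 4.62 CPM, with overlap because vehicle library 3 was low (edgeR log2 fold change -1.26, SE 0.38, adjusted p = 0.0349). Its call was lost without vehicle libraries 1, 2, 4 and 5 or halofuginone libraries 2, 3, 4 and 5 (highest adjusted p = 0.0838) and in 3 of the 10 settings that kept all libraries, and 21.6% of its 75-base words occur elsewhere. Gstm1, the major mu enzyme of liver, measured 845, 646, 569, 901 and 731 CPM against 532, 208, 399, 653 and 456 CPM and missed the threshold (edgeR log2 fold change -0.72, SE 0.26, adjusted p = 0.0662). It passed without library 1 (log2 fold change -0.80, adjusted p = 0.038), without library 4, with the replicate number as a block and by DESeq2, and 12.3% of its words are shared. Gstm4, Gstm5, Gstm6 and Gstm7 had log2 fold changes of -0.41, -0.03, -0.39 and -0.32 and were not called with or without that library. The sign for Gstm5 turned in 6 of the other fits (values up to 0.13). Gstm7 was called in a single fit, the one without halofuginone library 4.

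Gstz1 of the zeta class, the maleylacetoacetate isomerase of tyrosine breakdown, measured 756, 764, 610.0, 735 and 743 CPM under vehicle and 562, 447, 450.4, 649 and 532 CPM under halofuginone. The difference was small (edgeR log2 fold change -0.45, SE 0.14, adjusted p = 0.0382) and the groups overlapped at vehicle library 3 and halofuginone library 4. The call was lost in 6 of the 10 settings that kept all libraries and without vehicle libraries 1, 2, 4 and 5 or halofuginone libraries 2, 3 and 5 (highest adjusted p = 0.0991). Gsto1 of the omega class, a thioltransferase, measured 70.0, 65.4, 64.1, 78.8 and 70.7 CPM under vehicle and 75.6, 33.9, 77, 81.7 and 67.8 CPM under halofuginone. Library 2 was low and the other treated libraries lay in or above the vehicle range (edgeR log2 fold change -0.06, SE 0.20, adjusted p = 0.856), and the sign of its fold change turned without library 2 (0.10), with library size alone as the scaling (0.09) and with limma on FPKM (0.04). Gsto2, with at most 23 counts in a liver library, did not pass the count filter of the liver fit. It was kept and called higher by DESeq2 (log2 fold change 2.38, SE 0.86, adjusted p = 0.0278) and in the edgeR fit of all 4 groups (2.36, SE 0.72, adjusted p = 0.0388), at a mean of 0.0758 CPM under vehicle and 0.387 CPM under halofuginone.

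The pi class, 3 neighbouring genes on chromosome 19, was the only Gst class with positive fold changes for all tested members, and 1 of the 3 rose. Gstp1 is the abundant form in mouse liver and Gstp3 a minor relative. The 250 bases upstream of each start are shown (RefSeq, assembly GRCm38.p6, read 5′ to 3′ toward the start). Capitals mark TGANTCAGC, the NF-E2 type element read by AP-1 and NRF2 complexes.
Gstp1, chr19:4037913-4038162, minus strand: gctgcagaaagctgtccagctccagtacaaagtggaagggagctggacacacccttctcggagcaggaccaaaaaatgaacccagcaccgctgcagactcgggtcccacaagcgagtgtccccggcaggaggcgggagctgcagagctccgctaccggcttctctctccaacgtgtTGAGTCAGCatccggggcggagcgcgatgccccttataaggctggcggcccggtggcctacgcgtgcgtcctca
Gstp2, chr19:4042222-4042471, minus strand: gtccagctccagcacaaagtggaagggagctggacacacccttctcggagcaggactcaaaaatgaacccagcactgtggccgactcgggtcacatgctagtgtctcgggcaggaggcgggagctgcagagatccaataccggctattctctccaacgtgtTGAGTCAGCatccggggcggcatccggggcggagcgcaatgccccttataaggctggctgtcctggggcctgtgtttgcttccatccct
Gstp3, chr19:4059448-4059697, minus strand: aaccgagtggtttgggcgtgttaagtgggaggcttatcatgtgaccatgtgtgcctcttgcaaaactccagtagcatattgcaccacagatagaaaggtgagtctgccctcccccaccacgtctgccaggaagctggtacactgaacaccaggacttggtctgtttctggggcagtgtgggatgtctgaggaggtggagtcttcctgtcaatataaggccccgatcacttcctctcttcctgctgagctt
The element began 74 bases upstream of the Gstp1 start and 89 bases upstream of the Gstp2 start, and these letters were not in the Gstp3 window. Searched on both strands, TGANTCAGC was in 1.02% of 32851 RefSeq promoter windows of the same length and in 3.08% (2) of the 65 windows of members. The antioxidant response element core TGACNNNGC was in 4.62% (3) of the member windows and 10.2% of all windows. For the ATF4 and CHOP composite core TGATGNAA the shares were 1.54% (1) and 3.45%. Counts this small do not show whether members differ from all windows. The upstream windows of Gstp1 and Gstp2 were 78.5% identical, and those of Gstp1 and Gstp3 46.0%. The match is a description of sequence and no binding was measured.

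Gstp3 measured 7.88, 6.21, 4.75, 7.17 and 7.01 CPM in vehicle livers and 4.27, 21.3, 19.1, 20.7 and 23.7 CPM in treated livers. Treated libraries 2 to 5 were each above every vehicle library, and library 1 was below all of them (edgeR log2 fold change 1.43, SE 0.35, adjusted p = 0.0185). Without library 1 the values were log2 fold change 1.66, adjusted p = 1.17e-05. Gstp3 remained called when each library was left out in turn, with adjusted p from 1.17e-05 to 0.0475, and was lost with the replicate number as a block (adjusted p = 0.063). None of its 75-base words occurs in another gene. Gstp1 measured 369, 453, 678, 454 and 306 CPM under vehicle and 812, 337, 378, 677 and 514 CPM under halofuginone, with wide overlap and the highest value in library 1 (edgeR log2 fold change 0.27, SE 0.27, adjusted p = 0.497). Gstp2 had a mean of 1.94 ± 0.61 CPM (SD, n = 5) under vehicle and 2.95 ± 0.76 CPM under halofuginone (edgeR log2 fold change 0.62, SE 0.25, adjusted p = 0.0914). It was called higher by limma on FPKM and with library size alone as the scaling. Of the 75-base words, 44.5% of those of Gstp1 and 45.8% of those of Gstp2 occur in other genes, in each other above all, so counts of this pair are uncertain.

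The theta class, which conjugates small halogenated compounds, divided by gene. Gstt1 measured 171, 197, 143, 199.9 and 208 CPM in vehicle livers and 118, 31.8, 46.5, 62.7 and 52.8 CPM in treated livers. The groups did not overlap, library 1 lying nearest to the vehicle range (edgeR log2 fold change -1.56, SE 0.29, adjusted p = 0.00768). Its neighbour Gstt3 measured 54.3, 31.6, 19, 46.3 and 49.2 CPM against 17.2, 8.65, 19.1, 17.7 and 10.1 CPM, with vehicle library 3 in the treated range (edgeR log2 fold change -1.46, SE 0.30, adjusted p = 0.0104), and 19.1% of its words occur elsewhere. Both calls held without any single library. Gstt2, in the same cluster, was not called (edgeR log2 fold change 0.23, SE 0.29, adjusted p = 0.585), treated libraries 3 to 5 lying above the vehicle range and library 2 below it. Gstt4 had no count in any liver.

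The Ugt1a genes share their last exons and differ in a first exon with its own promoter, and they glucuronidate bilirubin (Ugt1a1) and planar phenols (Ugt1a6a and Ugt1a6b). Between 53.3% and 95.7% of the 75-base words of each Ugt1a gene occur in another gene, so reads from the shared exons could have been assigned to any of them and each value below is uncertain. Of 7 tested members 3 fell and 4 were not called, and all 7 had negative fold changes (median -0.51).

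Ugt1a5 measured 63.5, 86.6, 26.1, 70.3 and 72.8 CPM in vehicle livers and 18.2, 22.7, 28.9, 24.8 and 24.8 CPM in treated livers. Vehicle library 3 lay within the treated range and the other vehicle libraries were well above it, and library 1 was the lowest of all (edgeR log2 fold change -1.42, SE 0.26, adjusted p = 0.00727). The call held in every alternative fit. Ugt1a1 measured 621, 599, 525, 595 and 663 CPM against 579.5, 306, 374, 562 and 478 CPM, overlapping at treated libraries 1 and 4 (edgeR log2 fold change -0.39, SE 0.18, adjusted p = 0.132), and passed without library 1 (log2 fold change -0.50, adjusted p = 0.035). Ugt1a6a, called on a small difference, measured 122, 128, 113, 124 and 130.2 CPM against 100.0, 70.3, 83.4, 119 and 96 CPM (edgeR log2 fold change -0.40, SE 0.13, adjusted p = 0.0474). It was lost in 6 of the 10 settings that kept all libraries and without vehicle libraries 1, 2, 3, 4 and 5 or halofuginone libraries 2, 3 and 5 (highest adjusted p = 0.119). The near-identical Ugt1a6b (98.6% identical transcripts) was called only without library 1 or 4 (with both, edgeR log2 fold change -0.35, SE 0.15, adjusted p = 0.105). Ugt1a10, at the far end of the cluster, measured 0.594, 1.4, 1.35, 1.38 and 0.918 CPM against 0.894, 0.634, 0.215, 0.232 and 0.372 CPM, a low level (edgeR log2 fold change -1.29, SE 0.40, adjusted p = 0.0404), and its call was lost without vehicle libraries 2, 3, 4 and 5 or halofuginone libraries 2, 3, 4 and 5 (highest adjusted p = 0.0962) and in 2 of the 7 other settings tried. Ugt1a7c and Ugt1a9, with log2 fold changes of -0.82 and -0.51, were called only without library 1 in fits by edgeR. Limma and DESeq2 called Ugt1a7c with all libraries.

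The Ugt2 genes glucuronidate steroids, bile acids and fatty acids, and none of the 8 tested was called lower by the edgeR test with all 10 libraries at the settings used throughout. Ugt2b5, the most abundant Ugt gene, measured 515, 633, 643, 479 and 499 CPM under vehicle and 834, 267, 558, 526 and 433 CPM under halofuginone. Treated library 1 was the highest of all livers and library 2 the lowest (edgeR log2 fold change -0.08, SE 0.25, adjusted p = 0.834), and the sign turned without library 2 (0.08) and with library size alone (0.07). Ugt2a3 measured 259, 249.6, 264, 236 and 244 CPM against 244, 36.7, 40.8, 121 and 74.4 CPM. Library 1 was inside the narrow vehicle range while libraries 2 to 5 were far below it (edgeR log2 fold change -1.28, SE 0.44, adjusted p = 0.0565), and without library 1 Ugt2a3 was called (log2 fold change -1.90, adjusted p = 0.000856). With all libraries it was called by DESeq2, by limma, and by edgeR with library size alone as the scaling (adjusted p = 0.0455) or with the replicate number as a block (adjusted p = 0.0401, edgeR). Ugt2b1 measured 279.7, 506, 513, 275 and 338 CPM against 560.4, 62.1, 93.1, 195 and 113 CPM, with library 1 above the vehicle range and libraries 2 to 5 below it, and was not called with library 1 (adjusted p = 0.221) and called without it (log2 fold change -1.74, adjusted p = 0.00189). Ugt2b34 and Ugt2b36 were likewise called lower only without library 1, and Ugt2b37 and Ugt2b38 in neither fit.

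Ugt2b35 rose within this cluster, between Ugt2b1 and Ugt2b36. It measured 71.7, 112, 88.5, 91.7 and 83.2 CPM under vehicle and 113, 118, 133, 131 and 102 CPM under halofuginone (edgeR log2 fold change 0.42, SE 0.13, adjusted p = 0.0369). Vehicle library 2 lay inside the treated range, and the call was lost without vehicle libraries 1, 3, 4 and 5 or halofuginone libraries 2, 3 and 4 (highest adjusted p = 0.0859). The Ugt2b35 call was also lost in the edgeR fit of all 4 groups together (adjusted p = 0.0554). The Ugt3a pair uses other UDP sugars than glucuronic acid. Ugt3a1 measured 166, 166, 162, 142 and 176 CPM against 160.1, 27.6, 44.8, 58.1 and 42 CPM, library 1 lying in the vehicle range and libraries 2 to 5 far below (edgeR log2 fold change -1.29, SE 0.39, adjusted p = 0.0371). Its call was lost without any 1 of the other 9 libraries (highest adjusted p = 0.0917) and was log2 fold change -1.93, adjusted p = 3.18e-05 without library 1. Ugt3a2 measured 358, 399, 379.7, 343 and 386 CPM against 353, 159, 187, 344 and 273 CPM and was called only without library 1 (with it, edgeR log2 fold change -0.50, SE 0.21, adjusted p = 0.101).

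Among the sulfotransferases, 4 of 5 tested Sult1 genes fell and none of Sult2 or Sult5 was called. Sult1b1 (thyroid hormone and phenols), Sult1d1 (catecholamines and other amines) and Sult1e1 (estrogens) are adjacent on chromosome 5, next to the Ugt2 cluster, and all 3 fell. Sult1b1 measured 33.3, 32.7, 26.9, 32.6 and 30.9 CPM in vehicle livers and 14.6, 4.7, 5.94, 9.26 and 8.38 CPM in treated livers. No treated library reached the vehicle range (edgeR log2 fold change -1.87, SE 0.25, adjusted p = 0.00292), and the call held in every alternative fit. Sult1d1 measured 163, 127, 139, 92.7 and 134 CPM against 124, 19, 18, 38.4 and 28.9 CPM. Library 1 was inside the vehicle range and libraries 2 to 5 were below it (edgeR log2 fold change -1.52, SE 0.48, adjusted p = 0.0418). The call was lost without any 1 of the other 9 libraries (highest adjusted p = 0.096), and without library 1 it was log2 fold change -2.35, adjusted p = 5.94e-05. It was also lost in 2 of the 10 settings that kept all libraries. Sult1e1 was scarce in liver at 1.15, 0.701, 0.932, 0.598 and 0.524 CPM against 0.248, 0.186, 0.0716, 0.154 and 0.298 CPM, without overlap (edgeR log2 fold change -2.01, SE 0.37, adjusted p = 0.00719).

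Sult1c2 measured 3.88, 4.31, 4.57, 6.57 and 5.01 CPM under vehicle and 3.83, 0.82, 0.751, 2.08 and 2.68 CPM under halofuginone, library 1 lying just below the lowest vehicle library (edgeR log2 fold change -1.28, SE 0.39, adjusted p = 0.0362). Its call was lost without any 1 of the 9 libraries other than library 1 (highest adjusted p = 0.0817) and in the fit of all 4 groups together (adjusted p = 0.283). Sult1a1, the phenol sulfotransferase and most abundant Sult gene of liver, measured 419, 300.0, 298, 351 and 417 CPM against 257, 337, 344, 302 and 294 CPM and was not called (edgeR log2 fold change -0.22, SE 0.14, adjusted p = 0.269). Sult2a8, a bile acid sulfotransferase, measured 494, 521, 584, 314 and 482 CPM against 767, 72.1, 240.3, 423 and 374 CPM. Library 1 was the highest of all 10 livers and library 2 the lowest (edgeR log2 fold change -0.35, SE 0.45, adjusted p = 0.594). Sult5a1 measured 5.31, 4.76, 4.2, 3.44 and 5.01 CPM against 4.32, 1.16, 2.61, 2.7 and 2.16 CPM, missed the threshold (edgeR log2 fold change -0.82, SE 0.28, adjusted p = 0.0517) and passed by DESeq2 and without library 1 (log2 fold change -1.09, adjusted p = 0.00395).

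**Figure D4:**
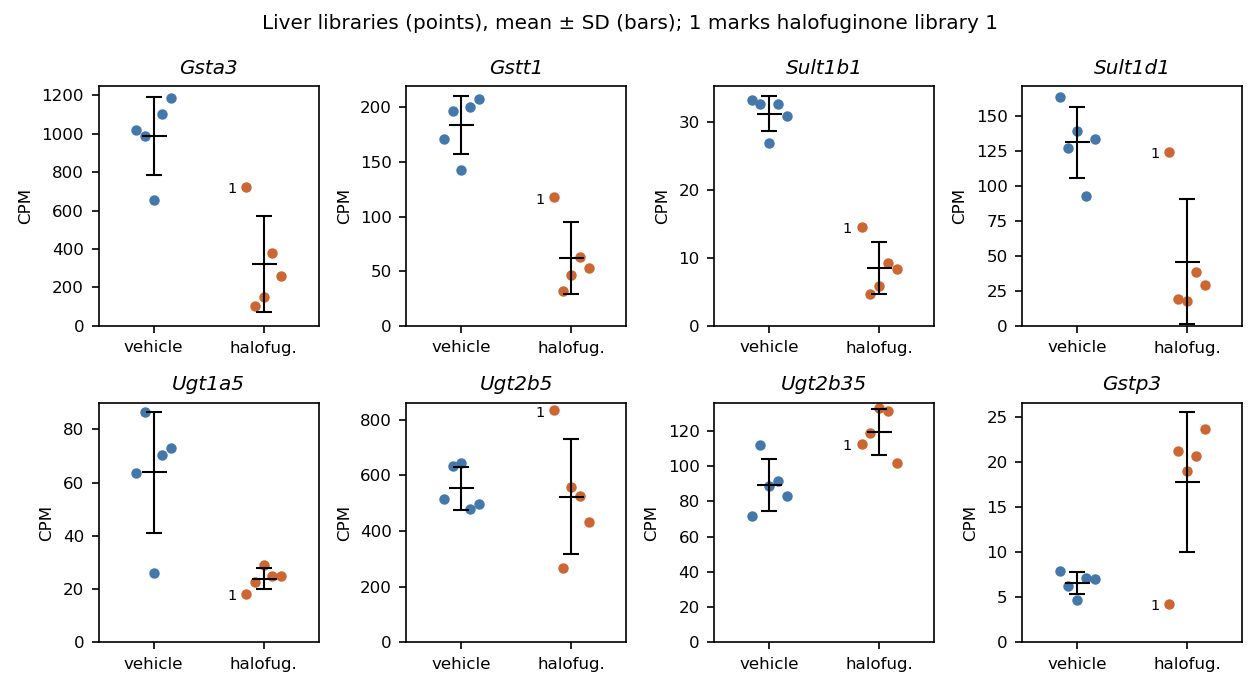
CPM of 8 members (y axis, starting at 0) in the 5 vehicle (blue) and 5 halofuginone (orange) liver libraries, with mean ± SD as black bars and halofuginone library 1 marked 1. Library 1 lies in the vehicle range for Gsta3 and Sult1d1, at the low end for Ugt1a5 and Gstp3, and is the highest point for Ugt2b5.

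Of the 20 liver calls, 9 held in all 20 other fits in which the gene was tested: Gsta1, Gsta2, Gstk1, Gstm2, Gstt1, Gstt3, Sult1b1, Sult1e1 and Ugt1a5. The number called lower ranged from 9 to 29 when each library was left out in turn. It was 9 without halofuginone library 3, 10 without vehicle library 2, 4 or 5 or halofuginone library 5, 11 without vehicle library 1 or halofuginone library 2, and 29 without halofuginone library 1.

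Genes that serve the same pathways were counted from lists chosen beside the families, and each count stands against the 10.5% of all tested genes called lower and 12.7% called higher. For lists of this size several counts, such as 2 of 15 regulators or 2 of 13 NRF2 targets, lie near those shares. For glutathione supply, 2 of 9 tested genes fell and none rose: Gclc, the catalytic subunit of the rate-limiting ligase, with a log2 fold change of -1.05 (SE 0.33, adjusted p = 0.0418, edgeR), and Gss, the synthase, with -0.57 (SE 0.14, adjusted p = 0.0174). Of 6 tested membrane glutathione transferases only Mgst3 was called, lower (log2 fold change -1.94, SE 0.42, adjusted p = 0.0114). For UDP-glucuronate supply, 2 of 5 fell and 1 rose. Ugdh, which makes UDP-glucuronate, measured 131 ± 12.04 CPM under vehicle and 48.1 ± 23.1 CPM under halofuginone (SD, n = 5, log2 fold change -1.45, SE 0.25, adjusted p = 0.00564), while Slc35d1, which carries it into the endoplasmic reticulum, rose by 0.72 (SE 0.20, adjusted p = 0.025). For the sulfate donor, 2 of 8 fell (Slc26a1 and Bpnt1, log2 fold changes -0.78 and -0.30) and Slc35b3 rose (0.62). Of 4 deconjugating enzymes, Arsb and Gusb fell (-0.89 and -0.51) and Arsg rose (1.38).

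Among 12 other conjugating enzymes Hnmt and Tpmt, which methylate histamine and thiopurines, fell (log2 fold changes -1.90 and -0.43). Of 16 transporters that export or take up conjugates, 3 fell and 1 rose. Abcc3, the basolateral exporter of glucuronides, measured 252 ± 28.8 CPM under vehicle and 82.9 ± 35.4 CPM under halofuginone (SD, n = 5, log2 fold change -1.60, SE 0.26, adjusted p = 0.00465, edgeR), Slco2b1 and Abcg2 had -1.02 and -0.96, and Abcb1b rose by 1.93. Of 15 tested regulators of these families Hnf4a and Arnt fell (-0.71 and -0.38) and none rose. Nfe2l2, which encodes NRF2, had a log2 fold change of -0.03 (adjusted p = 0.868), and of 13 NRF2 targets outside the families 2 fell (Aox1 and Gclc, -0.94 and -1.05) and none rose. Of 7 receptor-driven P450 genes Cyp3a11 and Cyp7a1 fell (-2.58 and -2.30). Over these 10 lists the median log2 fold change ran from -0.87 (P450 genes) to -0.05 (other conjugating enzymes), against 0.02 for all tested genes.

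Markers of hepatocyte position were counted in the same livers. Of 13 pericentral markers 6 fell (Glul, Oat, Rgn, Lect2, Rhbg and Slc1a2) and none rose, with a median log2 fold change of -0.91, and of 12 periportal markers 1 fell (Aldh1b1), with a median of -0.02. The summed pericentral level was 14889 to 18492 CPM in vehicle livers and 3768 to 10338 CPM in treated libraries 2 to 5, with 15392 CPM in library 1, and no marker of the list was at 0 in any liver. This sum was chiefly Cyp2e1, which was not called (log2 fold change -0.99, SE 0.40, adjusted p = 0.0916, edgeR). Axin2, Lgr5, Nkd1 and Tbx3 of the pericentral list were not called either. The summed level of 10 general hepatocyte markers was 133533 to 149083 CPM in vehicle and 57371 to 124957 CPM in treated livers, where Ttr and Apoa2 fell and Tat rose. Most of that sum was Alb, which was not called (log2 fold change -0.86, SE 0.33, adjusted p = 0.0742, edgeR). In the list of stellate cell and fibroblast markers 5 of 10 fell and none rose (summed level 266 to 364 CPM in vehicle and 179.6 to 292 CPM in treated livers). Of 6 tested adipocyte markers 4 fell and none rose (179 to 276 CPM and 71.9 to 163 CPM), these being Fabp4, Cfd, Lipe and Plin4. Adipoq, Lep, Plin1 and Retn of the adipocyte list had at most 1 count in any liver. The part of these markers in the results for the families was not tested.

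In fat, 26 members were tested and edgeR called none of them and 0% of the 14030 genes tested there. At an unadjusted p under 0.05, 5 members were lower and 0 higher, against 7.91% and 5.5% of all tested genes. The median log2 fold change was -0.55 over the members and 0.01 over all tested genes. DESeq2 called 4 members lower (Ugt1a7c, Ugt1a6a, Sult1e1 and Ugt3a2) and a fit of all 4 groups together called 3 (without Sult1e1). The shares of all fat genes called by DESeq2 and by that fit are not given here, so these counts have no background to stand against. Limma on log2 FPKM called none. In 5 members every treated library lay below every vehicle library (10.4% of all tested genes) and in 1, Gsto1, above (10.2%). With 3 against 3 libraries these members are described by their values.

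The 5 members with an unadjusted p under 0.05 in fat were also those without overlap in the lower direction. Ugt1a7c measured 36.1, 42.5 and 66.5 CPM in vehicle and 19.1, 13.5 and 18.5 CPM in treated fat (log2 fold change -1.51, SE 0.27, adjusted p = 0.143, edgeR). Ugt1a6a measured 71.7, 85.9 and 58.2 CPM against 45.4, 38.8 and 42.9 CPM (log2 fold change -0.76, SE 0.18, adjusted p = 0.188). Ugt1a6b measured 65.8, 75.5 and 26.9 CPM against 33.5, 20.4 and 33.7 CPM with overlap at vehicle library 3. Together with Ugt1a7c these are the phenol-conjugating forms, and the summed FPKM of all Ugt genes was 57.1 to 88.0 in vehicle and 31.3 to 46.4 in treated fat. Sult1e1, the estrogen sulfotransferase, had 17.7 ± 0.82 FPKM in vehicle fat and 0.594 ± 0.192 FPKM in vehicle liver (SD, n = 3 and 5, tables normalised separately). In fat it measured 23.6, 20.8 and 23.3 CPM against 13.8, 13.8 and 9.05 CPM (edgeR log2 fold change -0.88, SE 0.21, adjusted p = 0.188). Ugt3a2 was low at 3.24, 2.11 and 1.27 CPM against 0.623, 0.604 and 0.579 CPM (edgeR log2 fold change -1.86, SE 0.49, adjusted p = 0.215). Gsta3 measured 46.9, 67.6 and 44.4 CPM against 39.5, 17.2 and 30.1 CPM (edgeR log2 fold change -0.87, SE 0.33, adjusted p = 0.329), library 2 being the lowest treated library.

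The abundant Gst genes of fat gave overlapping or nearly overlapping groups. Gstm1, the leading member per length at 384 ± 106 FPKM (SD, n = 3), measured 493, 624 and 385 CPM against 575, 404 and 474 CPM, and the sign of its fold change (-0.05) turned in 5 of the alternative fits. Gstz1 measured 430.4, 504 and 198 CPM against 256, 153 and 218 CPM (edgeR log2 fold change -0.85, SE 0.37, adjusted p = 0.386), vehicle library 3 lying in the treated range. Gsto1 measured 115, 120.4 and 109.5 CPM against 128, 217 and 132 CPM, with treated library 2 far above the rest (edgeR log2 fold change 0.47, SE 0.23, adjusted p = 0.441). Gstp1 measured 88.6, 111 and 111 CPM against 82.3, 80.9 and 107 CPM and Gstk1 33.2, 39.1 and 20.3 CPM against 26.3, 18.3 and 23.1 CPM, both with overlap. Gstt1 ranged widely under vehicle, at 62.3, 97.8 and 24.2 CPM, and lay at 56.6, 39.1 and 47.6 CPM under halofuginone. Sult1a1, the leading Sult gene of fat, measured 207, 205 and 91.1 CPM against 288, 109 and 148 CPM, and its sign turned without vehicle library 3 (-0.19) or halofuginone library 1 (-0.39). Sult4a1, a brain-type sulfotransferase that, like Gsto2, passed the count filter in fat and not in liver, measured 1.56, 1.77 and 1.62 CPM against 2.49, 0.604 and 1.31 CPM, and Sult5a1 2.82, 4.22 and 1.15 CPM against 2.1, 1.44 and 1.52 CPM.

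A set of mu class genes followed single fat libraries and not the groups. Gstm7 measured 4.26, 36.3 and 14.7 CPM in vehicle and 3.45, 2.23 and 21.2 CPM in treated fat, high in vehicle library 2, halofuginone library 3 and vehicle library 3. Gstm5 measured 21.3, 80.9 and 29.8 CPM against 23.7, 14.7 and 52 CPM, highest in the same vehicle and treated libraries. The first principal component of all fat genes, which held 39.4% of the variance, was 65.7 in vehicle library 2, 25.5 in halofuginone library 3 and 16.2 in vehicle library 3, and between -60.0 and -9.62 in the others. The same libraries held the most RNA of 7 kidney markers, with summed levels of 28.7, 15.6 and 13.8 CPM against 0.279 to 1.08 CPM in the others, chiefly Lrp2, while Kap and Nphs1 were at 0. Their part in the mu class values was not tested.

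Macrophage markers also differed between the fat groups: all 8 tested markers had an unadjusted p under 0.05 in the lower direction, none was called, and the summed level of the list of 10 was 4497 to 9760 CPM in vehicle and 2980 to 3124 CPM in treated fat, with Clec4f at no more than 1 count. Of 14 NRF2 targets outside the families 8 were lower at an unadjusted p under 0.05 in fat, against 7.91% of all tested genes, and none was called. Some of them varied widely under vehicle, such as Hmox1 at 391 ± 347 CPM and Srxn1 at 177 ± 162 CPM (SD, n = 3). Others, such as Ephx1 at 160 ± 24 CPM and Me1 at 375 ± 45.6 CPM, varied less. Summed stellate cell and fibroblast markers did not overlap either, at 3992 to 5452 CPM in vehicle and 2945 to 3542 CPM in treated fat (Col1a1 and Col3a1 at log2 fold changes of -1.27 and -1.56, not called). Skeletal muscle markers summed to 95 to 177 CPM against 53.1 to 63.4 CPM, chiefly Acta1, and exocrine pancreas markers to 24.1 to 44.2 CPM against 16.7 to 21.7 CPM, chiefly Cela1. Adipocyte markers summed to 14796 to 29413 CPM in vehicle and 24725 to 30882 CPM in treated fat. Vehicle library 3 had the lowest adipocyte sum (14796 CPM), the lowest endothelium sum (580 CPM) and the highest macrophage sum (9760 CPM) of all fat libraries. Epididymis markers summed to 75.4 CPM in vehicle library 3 and 18.5 CPM in halofuginone library 1, against 0.579 to 1.08 CPM in the others. The part of these cells in the fat values was not tested.

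Which members responded unlike in the 2 tissues was asked of all 16 libraries in 1 model. By edgeR, none of the 24 members tested in both tissues was called for a difference in drug effect, against 0.949% of 14853 tested genes, and 5 of the 24 had an unadjusted p under 0.05, against 15.7% of those genes. DESeq2 and limma called no member of these 24 either. The smallest p-values were those of Ugt3a2 (fat minus liver -1.37, SE 0.44, unadjusted p = 0.00682, adjusted p = 0.139), Gstp2 (fat minus liver -1.20, SE 0.40, unadjusted p = 0.00852, adjusted p = 0.158), Gstt3 (fat minus liver 1.42, SE 0.49, unadjusted p = 0.0107, adjusted p = 0.171) and Sult1e1 (fat minus liver 1.11, SE 0.42, unadjusted p = 0.0192, adjusted p = 0.214). Without halofuginone liver library 1, Gsta4 was called, with a log2 fold change higher in fat than in liver by 3.36 (SE 0.81, adjusted p = 0.0234), while its fat fold change of 0.49 became -0.90 without halofuginone fat library 1. Sult1b1, Sult1d1, Gstp3, Ugt1a1, Ugt1a5, Ugt2a3 and the 7 Ugt2b genes were among the 21 members tested in liver alone, and their highest count in any fat library was 26. In total 15 of the 62 members were tested in neither tissue and 20 had no count in any fat library.

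**Figure D5:**
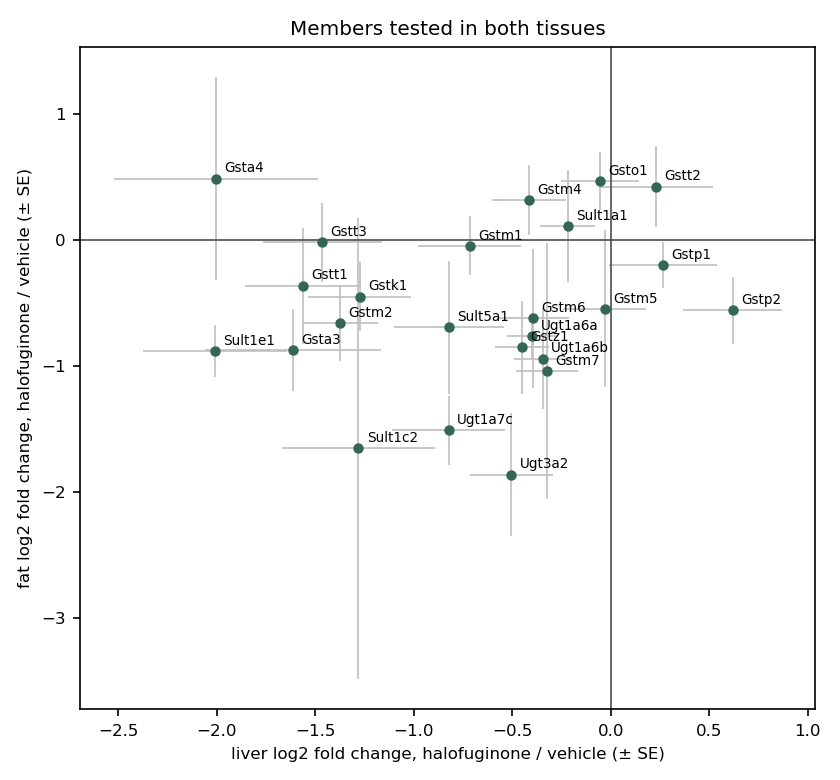
Log2 fold change (halofuginone over vehicle) in liver (x axis, 5 against 5 libraries) and in fat (y axis, 3 against 3 libraries) for the 24 members tested in both tissues, with bars of ± 1 SE from edgeR. Gstt3, Gstt1 and Gsta4 lie left of 0 in liver with fat values whose bars reach or approach 0. Ugt3a2, Sult1c2 and Ugt1a7c have the lowest fat values, with SE 0.49, 1.83 and 0.27.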

How the data were processed

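Libraries were made from oligo(dT)-captured RNA with a NEBNext Ultra kit, per the labels' protocols. The submitters' processing notes name fastp 0.18.0, Bowtie2 2.2.8, HISAT2, StringTie 1.3.1, RSEM and build mm39, without roles or order. Per the file headers, the authors deposited whole-number counts and FPKM per library. Between 1 and 31 genes per library show no count but a positive FPKM, so rounding of estimated counts is possible. Members were matched by symbol, and members and lists were chosen with earlier results of these data known. Liver and fat had separate edgeR 4.0.16 models (R 4.3.3) of the counts, with filterByExpr, trimmed-mean scaling, the quasi-likelihood test and Benjamini-Hochberg adjustment. A model of all 16 libraries gave the fat minus liver contrast. Values by library are given for called members at 1 CPM or more in the higher group, each family's most abundant member, and fat members that did not overlap at an unadjusted p under 0.05. Sult1e1 in liver, Ugt2b1, Gstm5, Gstm7, Ugt1a6b and Gstp2 were described after their values were seen. Alternatives were DESeq2 1.42.0, limma 3.58.1 on log2(FPKM + 1) and log2(FPKM + 0.1), other scalings and filters, a replicate block, and each library left out. Any 2 libraries of a group differed by more than counting noise (chi-square per degree of freedom at least 29.7). Promoter windows, with no element tested for function, come from RefSeq (GRCm38.p6, 54 of 62 members), shared words and gene order from GENCODE transcripts and RefSeq, and motifs were chosen after values were seen, 1 of them not reported here. The scripts were tested on simulated data.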

Additional observations from a re-analysis of the deposited data

Results flagged for a closer look

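The 29 liver members named by rule were searched here, and Sult1e1, Ugt2b1, Gstm5, Gstm7, Ugt1a6b and Gstp2 were not. Each group of 5 livers was searched for a library whose gap to its nearest neighbour exceeded 0.71 of the group's range (Dixon's limit). This held in 9 of 58 groups, where about 2.9 would be met by chance at 1 in 20. Halofuginone library 1 was the distant library in 5 of the 9: Gsta2 at 4.07 CPM (next 1.16), Gsta4 at 19.4 CPM (next 5.67), Sult1d1 at 124 CPM (next 38.4), Ugt3a1 at 160.1 CPM (next 58.1) and Gstp3 at 4.27 CPM (next 19.1). For all 5 genes this library lay within or close to the vehicle range. Halofuginone library 2 was distant for Gstm2, at 11.5 CPM (next 16.2). Among vehicle livers, library 4 was distant for Gsta1 at 3.44 CPM (next 1.302) and for Gsta2 at 16.6 CPM (next 6.81), and these genes share most of their sequence. Vehicle library 3 was distant for Gstz1, at 610.0 CPM (next 735).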

How the results depend on the processing

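For the 29 liver members named by rule, the fold change kept its direction and its side of the threshold in 461 of 577 refits, fell short in 96, newly passed in 14 and turned sign in 6. The count called lower was 9 to 29 with 1 library left out and the count called higher 1 to 2. Each such fit has fewer samples. Within a tissue, replicate numbers did not pair the 2 arms (same-number correlations from -0.156 to 0.0566 in liver and from -0.57 to 0.111 in fat). Between liver and fat, same-number correlations were 0.103, 0.128 and 0.226 for vehicle and -0.101, 0.0595 and -0.131 for halofuginone. Different-number correlations there ran from -0.23 to 0.24, so shared animals cannot be told from these values. With the replicate block 16 members were lower and 1 higher in liver, 0 in fat, and 0 differed between tissues. The other settings gave 13 to 22 lower in liver, 20 of 20 calls being shared with DESeq2 and 14 with the fit of all 4 groups. Among all 45 tested liver members, signs turned for Gstm5 (0.126 with library size alone, 0.081 and 0.087 with limma, 0.021 to 0.099 without vehicle library 2 or 4 or halofuginone library 1), Gsto1 (0.094 with library size alone, 0.039 and 0.038 with limma at pseudocounts 1 and 0.1, and from -0.147 to 0.103 with 1 library left out, positive without halofuginone library 2) and Ugt2b5 (0.070 with library size alone, and from -0.334 to 0.076 with 1 library left out, positive without that library). In fat the count called lower was 4 by DESeq2, 3 in the fit of all 4 groups and 0 with each library left out in turn. For the counts of 4 and 3 the share of all fat genes called is not given here. Fat signs turned for Gstm1 (0.009 with library size alone, 0.028 with limma at either pseudocount, and from -0.204 to 0.142 with 1 library left out, positive without vehicle or halofuginone library 2). With 1 library left out, Gstt1 ranged from -0.744 to 0.143 (positive without vehicle library 2), Sult1a1 from -0.388 (without halofuginone library 1) to 0.407, also negative without vehicle library 3, and Sult4a1 from -0.781 to 0.241 (positive without halofuginone library 2). Signs also turned for the fat members Gstt3 (-0.018 with all libraries in the edgeR fit, 0.020 to 0.326 in 7 fits), Gstm5 (0.237) and Gstm6 (0.003) without vehicle library 2, Gsto2 (0.080 without halofuginone library 2) and Gsta4 (-0.903 without halofuginone library 1). The fat minus liver count was 1 by DESeq2, 1 at 1 CPM or more, 2 by limma at either pseudocount and 0 to 3 with 1 library left out, the 3 being Gsta1, Gsta4 and Gsto2. The cause was not tested. A count of 3 is 0.0938 to 0.148 CPM in liver and 0.140 to 0.176 CPM in fat, and lower levels could not be compared.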
